A study of Mus musculus with 9 samples.

Results

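The genes described are 6 transcription factors that drive epithelial-mesenchymal transition (EMT), Snai1, Snai2, Zeb1, Zeb2, Twist1 and Twist2, and 4 genes that oppose it in epithelia, Esrp1, Esrp2, Ovol1 and Grhl2. They were chosen by name, and all 10 are listed among the 23366 gene entries of each count table. RNA-seq of mouse cell lines gave 9 libraries. mSGc is a line that immortalized spontaneously in culture from submandibular gland cells of 12-week-old male C57BL/6 mice, grown as monolayers on uncoated plastic, and it has 1 library each at passage 2 (P2), P4, P10 and P25 in serum-free medium (SFM) and at P10 and P25 in serum-containing medium (SCM). SFM, labelled as progenitor medium, holds EGF, FGF, N2 supplement, insulin and dexamethasone, and SCM, labelled as differentiating medium, holds 2.5% fetal bovine serum, retinoic acid, EGF, triiodothyronine, hydrocortisone, insulin, transferrin and selenite. IMOK, an immortalised mouse oral keratinocyte line labelled C57BL/6 and early passage and grown in its own medium, has 3 replicate libraries. IMOK cells were likewise isolated from adult C57BL/6 mice and immortalized spontaneously, so both lines share that origin. Each mSGc condition is 1 library of 1 line, and nothing in the labels says that the IMOK replicates came from separate cultures. Between mSGc and IMOK the line, the medium and the experiment change together and cannot be told apart. The paper states that its IMOK cells had the same passage number as P10 mSGc. By that statement the P10 comparison is matched for passage, and the one over all mSGc libraries is not.

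In EMT, epithelial cells lose their junctions and polarity and take on the shape and movement of mesenchymal cells. Snail, Zeb and Twist proteins bind E-box motifs in the promoters of epithelial genes such as Cdh1 (E-cadherin) and repress them, while Esrp1 and Esrp2 direct epithelial splicing, and Ovol and Grainyhead-like proteins repress Zeb1 or hold epithelial genes active. The miR-200 microRNAs repress Zeb1 and Zeb2 through matches to their seed in the 3′ UTR, and the Zeb proteins repress the miR-200 genes in turn. Basal cells of stratified and glandular epithelia normally express Snai2 while they keep their epithelial form, so a single EMT factor does not by itself mark a mesenchymal cell.

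Levels are given as TPM (transcript counts scaled for gene length and for the library total), computed from counts and gene lengths, so that genes can be compared within a library. The strongest of the 10 genes in 8 of the 9 libraries was Esrp1. Snai1, Zeb1, Zeb2 and Twist2 stood near the limit of counting, with some exceptions. These were Zeb1 and Zeb2 at P2, Zeb2 in IMOK, and Twist2 in IMOK replicates 2 and 3. Total counts ran from 6237884 to 18444963 per library, and 3 counts, the limit that a count of 0 allows, correspond to between 0.163 and 0.481 CPM (counts scaled to the library total). Such limits, and the counting intervals given below, leave out all variation other than counting. The P2 library and IMOK replicate 1 stood apart from the others. Myoepithelial markers (Acta2, Myh11, Cnn1, Tagln and Mylk) summed to 769 TPM at P2 and to 7.97 to 125 TPM in the other 5 mSGc libraries, and to 961 TPM in IMOK replicate 1 against 10.2 and 15.4 TPM in replicates 2 and 3. All 6 epithelial markers, Epcam, Cdh1, Krt5, Krt14, Krt8 and Krt18, were above 1 TPM in all 9 libraries, with sums of 9996 to 24053 TPM, so each library showed the epithelial identity of its label.

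The sequences below show the seed of the miR-200 family, because Zeb1 and Zeb2 are set apart from the other 8 genes by how often their 3′ UTRs match it. The mature sequences are from RefSeq (GRCm38.p6), written 5′ to 3′, with the seed (bases 2 to 8) in capitals. The first 3 share one seed and the last 2 share another.
miR-200b-3p: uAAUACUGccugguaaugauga
miR-200c-3p: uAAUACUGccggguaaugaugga
miR-429-3p: uAAUACUGucugguaaugccgu
miR-200a-3p: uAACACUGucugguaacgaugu
miR-141-3p: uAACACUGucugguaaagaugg

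In the mm9 annotation the longest 3′ UTR of Zeb2, of 4939 bases, holds 5 matches to the seed of miR-200b, miR-200c and miR-429 (CAGTATT) and 4 to that of miR-200a and miR-141 (CAGTGTT). The 487 annotated 3′ UTRs at least as long, Zeb2 itself among them, were read over their first 4939 bases. Of these, 0.411% hold as many of the first and 0.821% as many of the second. The 3′ UTR of Zeb1, of 2401 bases, also holds 5 and 4 matches. As many are held by 0.0603% and 0.121% of 3315 3′ UTRs of at least its length, read over their first 2401 bases. Zeb1 itself and Zeb2 are among these 3315, and the 5 Zeb2 matches of the first kind lie in that stretch. Snai1 has 1 match to the first seed, Snai2 has 1 to each and Grhl2 has 1 to the second, and the 3′ UTRs of Twist1, Twist2, Esrp1, Esrp2 and Ovol1 have none. Such a match is a stretch of letters and says nothing of whether it was used in these cells. The 5 Zeb2 matches of the first kind are shown in windows of 30 bases on the minus strand of mm9 (NCBIM37), with the match in capitals.
chr2:44843682-44843711: ctaccatacatCAGTATTttattattatta
chr2:44843617-44843646: ctacagtgcatCAGTATTacgattcctcaa
chr2:44843255-44843284: agcacccgtgtCAGTATTagacgactaggc
chr2:44843170-44843199: attaattttgtCAGTATTacaccaaacttt
chr2:44843036-44843065: actgtagtgtaCAGTATTatagttcttcaa

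The miRNA genes themselves could not be read from these libraries. The entries Mir141, Mir200a, Mir200b, Mir200c and Mir429 had 0 to 6 counts each in every library and none entered a test. These are gene-level entries and do not measure mature miRNAs.

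Promoter sequence was at hand for Snai1, Zeb2, Twist1 and Twist2. The 6 EMT factors bind E-boxes, and the E2 box (CAGGTG, or CACCTG on the other strand) was found in the promoter of Snai1, which holds 1, and in none of the promoters of Zeb2, Twist1 and Twist2. Of 32851 mouse promoters of the same length, 20.2% hold at least 1. The Snai1 promoter, chr2:167537945-167538244 on the plus strand of GRCm38.p6 (RefSeq), runs from 250 bases before the start of transcription to 50 after it, and the E2 box is in capitals.
Snai1 promoter: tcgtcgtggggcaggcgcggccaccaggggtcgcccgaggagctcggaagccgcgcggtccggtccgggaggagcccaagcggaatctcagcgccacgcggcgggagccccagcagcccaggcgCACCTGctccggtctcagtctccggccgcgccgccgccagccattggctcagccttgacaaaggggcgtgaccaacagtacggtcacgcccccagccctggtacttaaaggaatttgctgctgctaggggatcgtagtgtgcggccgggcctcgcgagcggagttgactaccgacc

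**Figure D1:**
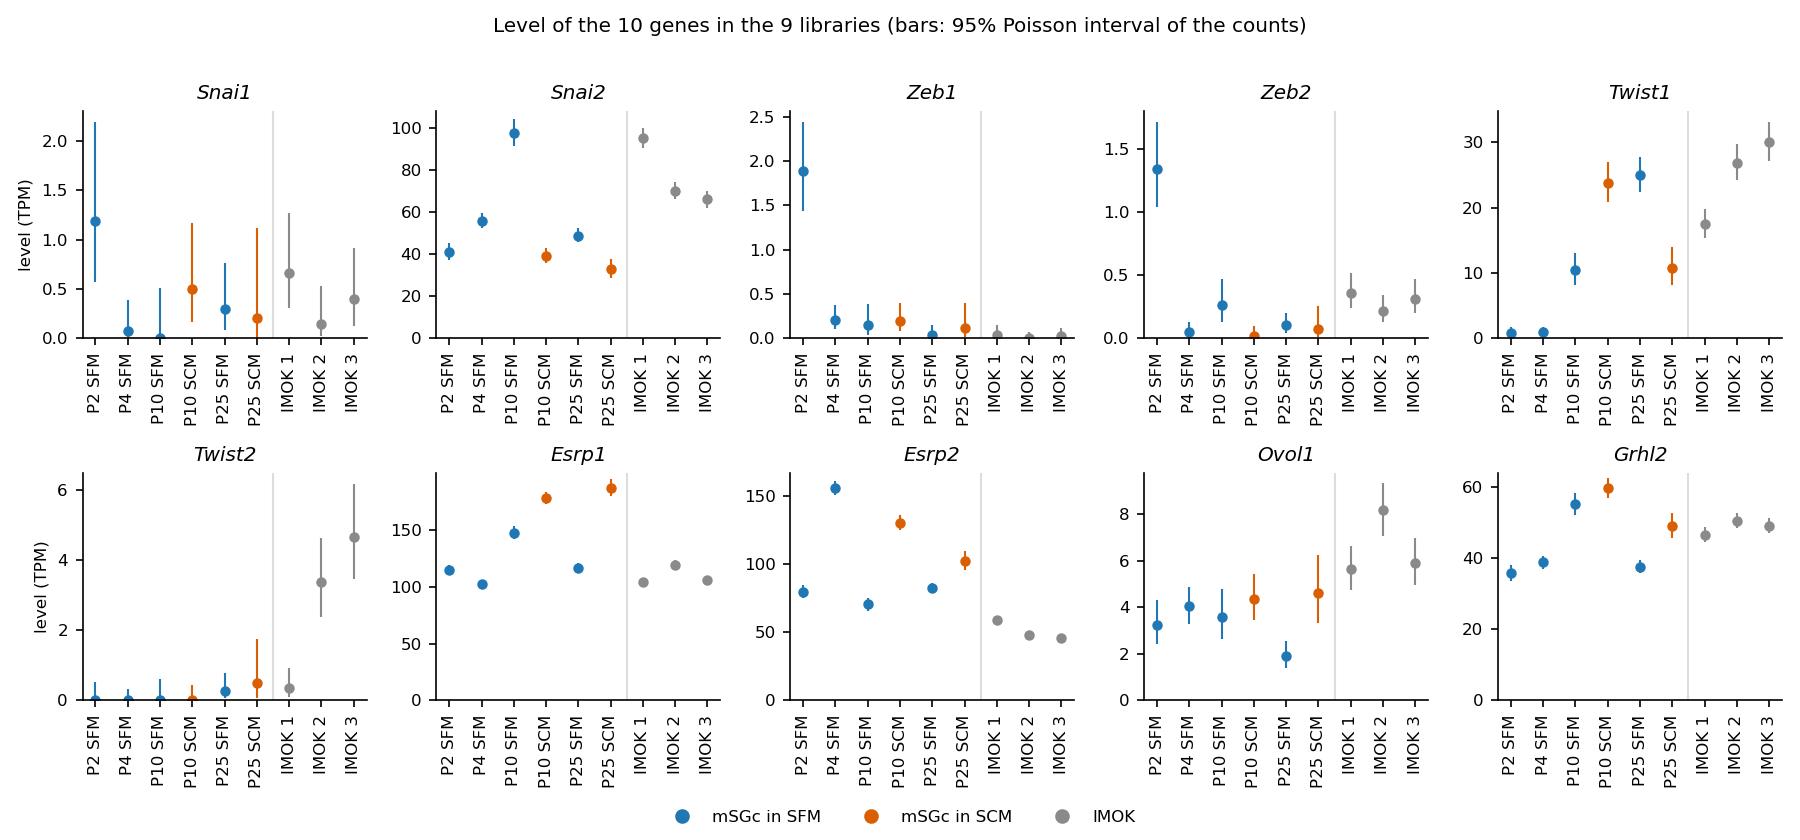
Level in TPM (vertical axes, each from 0) of each of the 10 genes in the 6 mSGc libraries, blue for SFM and orange for SCM, and the 3 IMOK libraries, grey, with 95% Poisson intervals of the counts as bars. Esrp1 lies above 100 TPM in all 9 libraries, Snai2 between 33.1 and 97.7 TPM, and Zeb1 and Zeb2 above 1 TPM at P2 only.

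Snai1 and Snai2 are zinc-finger repressors of the Snail family, and in these cells Snai2 was the abundant one. Snai1 (chromosome 2, 167363727-167368311 in mm9, plus strand, 3 exons) had 10, 1, 0 and 4 counts in SFM (P2, P4, P10 and P25), 5 and 1 counts in SCM (P10 and P25), and 9, 2 and 5 counts in the IMOK replicates. These correspond to at most 1.19 TPM, the groups overlapped, and pooled counts of mSGc and IMOK differed 0.977-fold, with an interval of counting error from 0.486 to 2.002. Snai1 did not pass the filter on low counts in any fit. Snai2 (chromosome 16, 14705952-14709475, plus strand, 3 exons) stood at 41.2, 56.0, 97.7 and 48.9 TPM in SFM (P2, P4, P10 and P25) and at 39.3 and 33.1 TPM in SCM (P10 and P25). In IMOK it stood at 95.2, 70.2 and 66.1 TPM. The P10 SFM library lay above all 3 IMOK libraries and the other 5 mSGc libraries lay below them. Snai2 ranked from the second to the fourth of the 10 genes in every library and held 61.6% to 97.6% of the summed TPM of the 6 EMT factors.

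The level of Snai2 in all mSGc libraries against IMOK gave a log2 fold change of -0.31 ± 0.32 (SE, adjusted p = 0.576, edgeR), with n of 6 and 3. At P10 alone it gave 0.04 ± 0.42 (adjusted p = 0.964, edgeR), a sign that several other settings turned, with -0.88 without the P10 SFM library. Snai3, another Snail factor, stood at 0 to 4.01 TPM in mSGc and at 8.95 to 15.5 TPM in IMOK. The Snai3 difference of -2.06 ± 0.80 on the log2 scale did not pass the test (adjusted p = 0.112, edgeR).

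Zeb1 and Zeb2 are zinc-finger and homeodomain repressors of Cdh1 and of the miR-200 genes. Among the mSGc libraries both were highest at P2, and Zeb2 was also detected in all 3 IMOK libraries. Zeb1 (chromosome 18) had 58, 11, 4 and 2 counts in SFM (P2, P4, P10 and P25), 7 and 2 counts in SCM (P10 and P25), and 2, 0 and 1 in the IMOK replicates. The P2 level of 1.89 TPM fell 8.28-fold by P4 on the CPM scale (log2 ratio -3.05, counting interval -4.13 to -2.11). Over all libraries pooled, mSGc held 20.8-fold more Zeb1 counts per total than IMOK (interval 6.89 to 103), and without P2 it held 7.60-fold more (2.33 to 39.2), from 26 counts against 3. The lowest mSGc library, P25 in SFM, and the highest IMOK library, replicate 1, both had 2 counts.

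Zeb2 (chromosome 2, minus strand) had 65, 4, 11 and 8 counts in SFM (P2, P4, P10 and P25) and 1 and 2 counts in SCM (P10 and P25). The IMOK replicates had 28, 17 and 23 counts. Its level fell from 1.35 TPM at P2 to 0.0489 TPM at P4 (log2 ratio -4.67 on the CPM scale, interval -6.59 to -3.25). Pooled counts of Zeb2 were 2.98-fold higher in IMOK than in the mSGc libraries other than P2 (interval 1.87 to 4.88). IMOK lay between P2 and the other mSGc libraries, except that P10 in SFM, at 0.262 TPM, lay inside the IMOK range of 0.216 to 0.361 TPM. Zeb2 was fitted in all 4 comparisons and passed in none. For all mSGc against IMOK its log2 fold change was 0.21 ± 1.09 (adjusted p = 0.921, edgeR), and it turned to -1.32 without the P2 library (adjusted p = 0.263, edgeR). Neither Zeb gene has an overlapping entry with more than a trace of counts.

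The 16 mesenchymal target genes fixed as a list summed to 3726 TPM at P2 and to 870 to 1774 TPM in the other mSGc libraries, and 12 of the 16 had their highest mSGc level at P2, as did 24.1% of 13306 genes that reached 10 counts in 2 or more libraries. Of the 9 fibroblast markers 6 were highest at P2, with a sum of 417 TPM against 9.41 to 238 TPM in the other mSGc libraries and 1.55 to 38.0 TPM in IMOK. Most of the P2 sum was Postn, at 394 TPM, and Postn stood at 237 and 168 TPM at P10 in SFM and SCM. Some markers were highest elsewhere. Dcn was highest at P10 in SCM (3.79 against 0.816 TPM at P2) and Col3a1 at P25 in SCM (2.29 against 1.02 TPM at P2). Thy1 had 3.92 TPM at P2 and 0 in the other mSGc libraries, Col1a2 had 9.88 TPM at P2 and at most 0.619 in the others, and Lum and Pdgfra stayed at or under 1 TPM in all 9 libraries. All 5 myoepithelial markers were highest at P2 among the mSGc libraries. Endothelial markers summed to at most 0.945 TPM and the 3 Schwann cell markers to at most 2.21 TPM. The 5 leukocyte markers summed to 11.7 to 86.6 TPM in mSGc and 6.96 to 37.1 TPM in IMOK. Of these, Ptprc and Cd3e were at or near 0 in all libraries, while Cd14 stood at 7.55 to 84.7 TPM in mSGc and 2.33 to 3.68 in IMOK, and Cd68 at 1.88 to 4.10 and 4.58 to 33.4. Cd14 was called higher in mSGc than in IMOK and Cd68 lower (log2 fold changes 3.43 ± 0.77 and -2.26 ± 0.55, adjusted p = 0.0164 and 0.0230, edgeR). The part of these cells in the Zeb counts at P2 was not tested, and in bulk RNA fewer cells of a type and less RNA per cell cannot be told apart. In IMOK replicate 1, where the myoepithelial sum was 961 TPM, Zeb1 had 2 counts and Zeb2 had 28. IMOK replicates 2 and 3 had 17 and 23 Zeb2 counts. Replicate 1 differed from neither beyond counting error (log2 ratio 0.69, interval -0.23 to 1.65, and 0.15, interval -0.70 to 1.02).

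**Figure D2:**
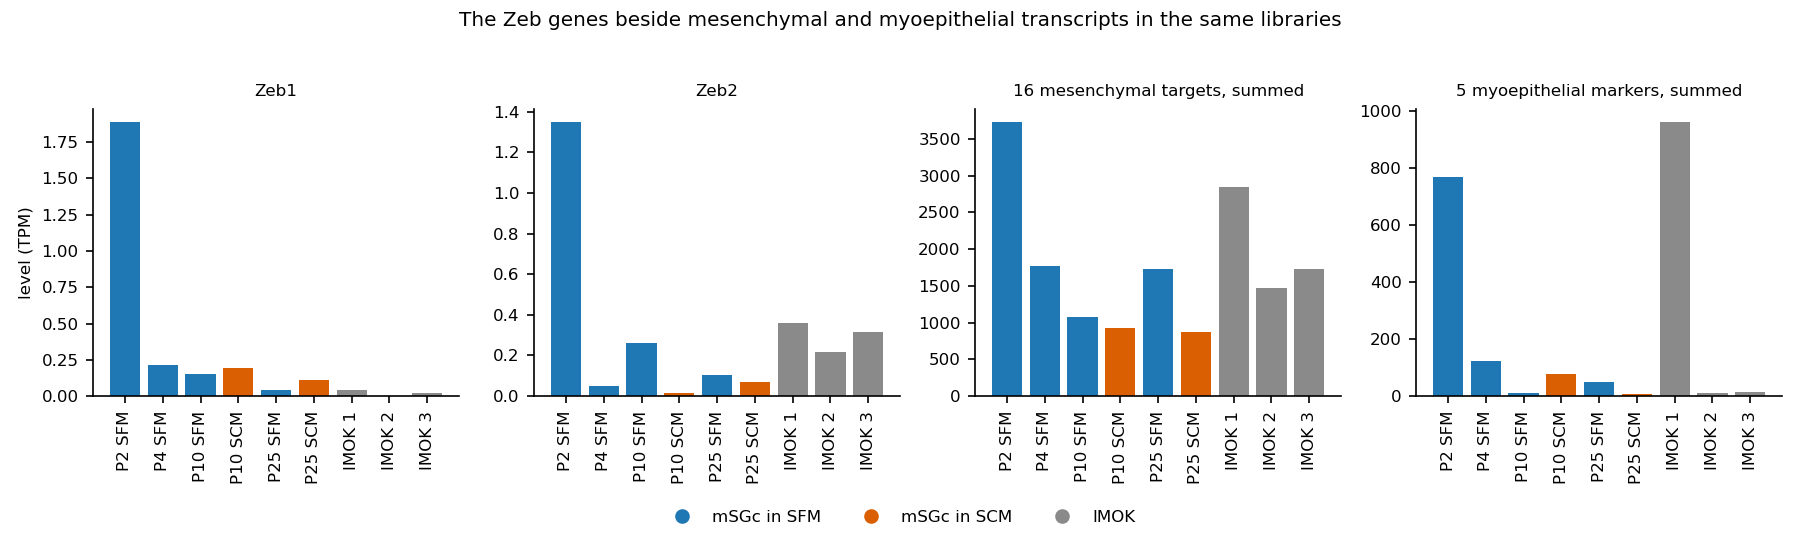
Bars of the level in TPM of Zeb1, of Zeb2, of 16 mesenchymal target genes summed and of 5 myoepithelial markers summed, in the 6 mSGc (blue SFM, orange SCM) and 3 IMOK (grey) libraries, each axis from 0. All 4 panels peak at P2 among the mSGc libraries, and among the IMOK libraries replicate 1 has the highest myoepithelial sum, 961 TPM. Zeb2 is at 0.361, 0.216 and 0.315 TPM in IMOK replicates 1, 2 and 3, and replicate 1 differs from the others within counting error.

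Twist1 and Twist2 are basic helix-loop-helix factors of mesoderm and mesenchyme. Twist1 was present in all 9 libraries and differed more between mSGc libraries than any other of the 10 genes with at least 10 TPM somewhere. Twist1 (chromosome 12, 34642536-34644696, plus strand, 2 exons) stood at 0.811, 1.02, 10.4 and 24.97 TPM in SFM (P2, P4, P10 and P25) and at 23.8 and 10.7 TPM in SCM (P10 and P25). In IMOK it stood at 17.4, 26.9 and 30.0004 TPM. The P2 and P4 libraries were low and the later mSGc libraries were nearer to IMOK. On the TPM scale P10 in SCM and P25 in SFM lay inside the IMOK range. With library totals scaled by TMM, the normalization used in the fits, P25 in SFM lay above that range (15.2 against at most 14.6 length-scaled CPM). In SFM the level rose at every step, as it did for 2.61% of 13306 genes. The first step lay within counting error (log2 ratio 0.45, interval -0.93 to 1.98), and the step from P4 to P10 was the largest, at 9.99-fold on the CPM scale (log2 ratio 3.32, interval 2.51 to 4.23).

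Over the 6 mSGc libraries Twist1 rose by 1.31 ± 0.34 on the log2 scale per doubling of the passage number, with medium in the fit. This had an unadjusted p of 0.00642 and did not pass after adjustment over all genes (adjusted p = 0.167, edgeR). DESeq2 called it (adjusted p = 0.00179), as it did 700 of the 12451 genes tested. Of the 10 genes, 7 were tested for passage and 0 were called, against 0.49% of the 12451 genes tested, and Twist1 was the only one of the 7 with an unadjusted p under 0.05. The medium went with opposite differences at P10 and P25. In SCM Twist1 was 2.12-fold higher than in SFM at P10 (log2 ratio 1.08, interval 0.71 to 1.47) and 2.54-fold lower at P25 (log2 ratio -1.35, interval -1.78 to -0.93). Each condition has 1 library, so this crossing has no replicate check.

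Against IMOK the log2 fold change of Twist1 was -0.83 ± 0.89 for all mSGc (adjusted p = 0.581, edgeR) and -0.42 ± 0.48 at P10 (adjusted p = 0.633, edgeR). Twist2 (chromosome 1, plus strand) had 0 counts at P2, P4 and both P10 libraries, and 3 and 2 counts at P25 in SFM and SCM. The IMOK replicates had 4, 38 and 49 counts, or 0.358, 3.36 and 4.66 TPM. IMOK replicates 2 and 3 lay above every mSGc library, and replicate 1 lay among the P25 libraries. Pooled counts were 24.5-fold higher in IMOK than in mSGc (interval 10.1 to 77.1), and the IMOK mean was at least 6.17-fold above the 3-count limit per library at P10. With all libraries Twist2 passed the filter only in the P10 fit, where the difference from IMOK was not called (adjusted p = 0.130, edgeR). It was called there without IMOK replicate 1 (adjusted p = 0.0161, edgeR) and by DESeq2 (adjusted p = 0.0180). Without that replicate Twist2 was also tested, and called lower, in all mSGc against IMOK (adjusted p = 0.0183, edgeR). In each of these fits Twist2 passed the filter only through IMOK replicates 2 and 3, where it was high, so the calls are not independent support. IMOK replicate 1 also had the lowest Twist1 and the highest Snai2 of the 3, with 880 TPM of Acta2 against 7.08 and 13.8 TPM. Whether its other differences have a part in these values was not tested.

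**Figure D3:**
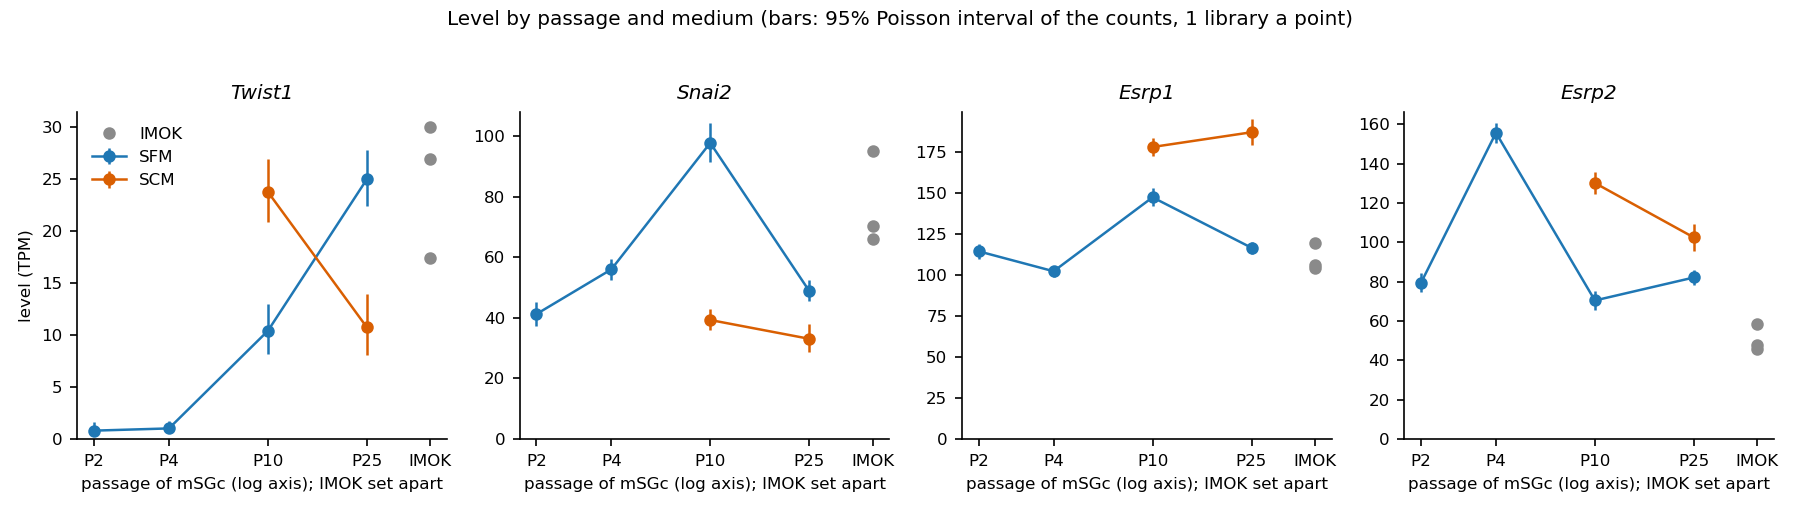
Level in TPM (vertical axes from 0) of Twist1, Snai2, Esrp1 and Esrp2 by passage on a log axis, with mSGc in SFM in blue, mSGc in SCM in orange and the 3 IMOK libraries in grey at the right, bars being 95% Poisson intervals of the counts. Twist1 climbs from 0.811 TPM at P2 to 24.97 TPM at P25 in SFM and is lower in SCM at P25 but higher at P10, while Snai2 is lower and both Esrp genes are higher in SCM at either passage.

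Esrp1 and Esrp2 are RNA-binding proteins that direct the splicing of epithelial isoforms and are lost from cells in EMT. They were the most abundant of the 10 genes in mSGc, except that Snai2 exceeded Esrp2 at P10 in SFM, and Esrp2 was the only one whose difference between the lines passed the test. Esrp2 (chromosome 8, 108655083-108660874, minus strand, 15 exons) stood at 79.6, 156, 70.5 and 82.2 TPM in SFM (P2, P4, P10 and P25) and at 130 and 102 TPM in SCM (P10 and P25). In IMOK it stood at 58.7, 47.8 and 45.8 TPM. All 6 mSGc libraries lay above all 3 IMOK libraries, which 5.11% of 13306 genes also did, with the widest gap at P4 and the narrowest at P10 in SFM. All mSGc against IMOK gave a log2 fold change of 1.26 ± 0.27 (adjusted p = 0.0147, edgeR), or 2.39-fold. Of the 10 genes 7 were tested and 1 was called, against 14.9% of the 12885 genes tested in that fit. Esrp2 is also in a list of genes that was picked partly on these libraries, so its direction is not independent evidence.

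The call was lost without IMOK replicate 2 (1.23, adjusted p = 0.0721, edgeR) and without IMOK replicate 3 (1.23, adjusted p = 0.0615, edgeR). At P10 the log2 fold change was 1.14 ± 0.26 (adjusted p = 0.0683, edgeR), and DESeq2 called it (adjusted p = 0.00497). In the P10 fit 8 of the 10 genes were tested and edgeR called 0 of them, 3 having an unadjusted p under 0.05, against 4.2% of 13018 genes. DESeq2 called 3 of them, Esrp1, Esrp2 and Twist2, against 2231 of the 13018 genes.

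Esrp2 overlaps 1810019D21Rik on the opposite strand by 1575 bases. That entry stood at 15.3 to 35.2 TPM in mSGc and 4.58 to 5.06 TPM in IMOK. Its log2 fold change was 2.61 ± 0.32 (adjusted p = 0.00105, edgeR). Whether the counts used strand is not given in the sources used here, so reads from the shared stretch cannot be assigned to one of the genes.

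Esrp1 (chromosome 4, minus strand) stood at 115, 102, 147 and 117 TPM in SFM (P2, P4, P10 and P25) and at 178 and 187 TPM in SCM (P10 and P25). In IMOK it stood at 104, 120 and 106 TPM. On the TPM scale P4 lay below all 3 IMOK libraries and P2 and P25 in SFM lay inside their range. Both SCM libraries and P10 in SFM lay above that range. With totals scaled by TMM, P4 and P25 in SFM also lay above it, at 58.0 and 70.9 against 40.6 to 55.3 length-scaled CPM. The log2 fold change of all mSGc against IMOK was 0.57 ± 0.21 and did not pass (adjusted p = 0.103, edgeR), and DESeq2 called it (adjusted p = 0.0425). At P10 it was 0.73 ± 0.22 (adjusted p = 0.117, edgeR).

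The ratio of Esrp1 to Esrp2 within a library, which does not depend on its depth, was 1.44, 0.657, 2.09 and 1.42 in SFM (P2, P4, P10 and P25) and 1.37 and 1.83 in SCM (P10 and P25). In IMOK it was 1.77, 2.499 and 2.32. P4 was the only library in which Esrp2 exceeded Esrp1. The mean log2 ratio was 0.47 ± 0.58 in mSGc (SD, n = 6) and 1.12 ± 0.26 in IMOK (SD, n = 3), a difference of -0.65 that an exact two-sided permutation test did not call (p = 0.0714, the only ratio tested, smallest possible p 0.0238). The other 3 paralog ratios were not tested, because one gene of each pair had 3 counts or fewer in some library.

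Ovol1 and Grhl2 are transcription factors of epithelial differentiation, and Grhl2 binds and activates genes of cell junctions. Ovol1 (chromosome 19, minus strand) was the weakest of the 4 epithelial genes. It stood at 3.26, 4.03, 3.599 and 1.91 TPM in SFM (P2, P4, P10 and P25) and at 4.36 and 4.61 TPM in SCM (P10 and P25), and at 5.62, 8.16 and 5.89 TPM in IMOK. On the TPM scale all 6 mSGc libraries lay below all 3 IMOK libraries, which 17.1% of 13306 genes also did (28.6% for the P10 libraries alone). With totals scaled by TMM the lines overlapped. P4 in SFM and P25 in SCM, at 2.29 and 2.41 length-scaled CPM, lay above IMOK replicate 1, at 2.19. The difference did not pass (log2 fold change -0.66 ± 0.32, adjusted p = 0.202, edgeR). Grhl2 (chromosome 15, plus strand) was the steadiest, at 35.8, 38.8, 55.2 and 37.5 TPM in SFM (P2, P4, P10 and P25) and at 59.7 and 49.1 TPM in SCM (P10 and P25). In IMOK it stood at 46.6, 50.6 and 49.1 TPM, inside the mSGc range. Its log2 fold change was 0.12 ± 0.18 (adjusted p = 0.701, edgeR).

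Their relatives, named by rule, were Ovol2 at 8.79 to 17.5 TPM in mSGc and 7.65 to 9.11 in IMOK, Grhl1 at 1.2 to 36.7 and 2.01 to 6.42, and Grhl3 at 4.87 to 29.6 and 12.2 to 27.2. Their log2 fold changes of 0.70 ± 0.28, 2.13 ± 0.77 and 0.02 ± 0.45 had adjusted p-values of 0.125, 0.0899 and 0.988 (edgeR). Ovol2 was thus more abundant per length than Ovol1 in all 9 libraries, and Grhl2 more than Grhl1 and Grhl3.

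**Figure D4:**
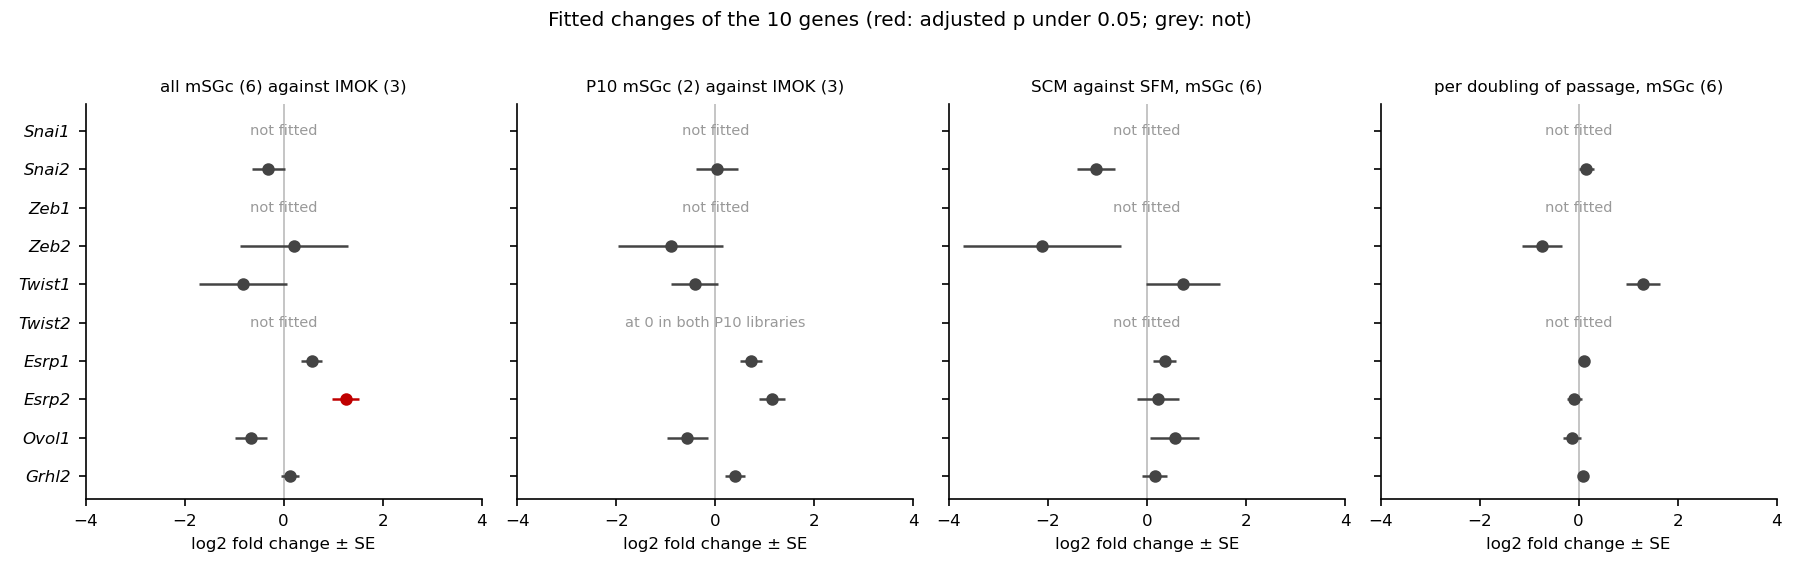
Fitted log2 fold change (horizontal axes, points) ± SE (bars) of the 10 genes in the 4 edgeR comparisons, with numbers of libraries in the panel titles, red where the adjusted p is under 0.05. Only Esrp2 against IMOK over all mSGc libraries, at 1.26, is red, and Twist1 has the largest change per doubling of the passage, at 1.31.

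The 3 epithelial genes with the largest differences between the lines, Esrp2, Ovol1 and Esrp1, lay among genes whose median differed in the same direction. Tested genes within 5 Mb of Esrp2 had a median log2 fold change of 0.52 in all mSGc against IMOK (110 genes, 24 of them called, 22 higher), and the 709 tested genes of chromosome 8 had a median of 0.35 against -0.01 for all other genes. Within 5 Mb of Esrp1 the median was 0.52 (31 genes, 8 called, 8 higher), with 0.31 over the 829 genes of chromosome 4. Within 5 Mb of Ovol1 it was -0.59 (191 genes, 54 called, 1 higher), with -0.55 over the 466 genes of chromosome 19. The values of Esrp1 and Ovol1 were thus close to the medians of their neighbours, and that of Esrp2 was larger than its own. For Grhl2, Snai2 and Twist1 the medians of the neighbours were 0.06, -0.13 and 0.22. The study's karyotype of early passage mSGc names chromosomes 8 and Y as abnormal, and the part of the chromosomes in these differences was not tested.

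With medium as the comparison, SCM against SFM within mSGc and the passage in the fit, 7 of the 10 genes were tested and 0 were called by edgeR, 1 with an unadjusted p under 0.05, against 0.0241% of 12451 genes called. DESeq2 also called 0. Snai2 had the largest of the better measured differences, at -1.03 ± 0.39 on the log2 scale (adjusted p = 0.534, edgeR). It was lower in SCM at P10 (log2 ratio -1.42, interval -1.58 to -1.26) and at P25 (-0.69, interval -0.92 to -0.47). The 4 epithelial genes were all higher in SCM than in SFM at both passages on the TPM scale, as were 41.8% of 13306 genes. At P10 this lay within counting error for Grhl2 (log2 ratio 0.003 on the CPM scale, interval -0.10 to 0.11) and Ovol1 (0.17, interval -0.37 to 0.72). With totals scaled by TMM, Grhl2 at P10 was slightly lower in SCM (28.2 against 28.5 length-scaled CPM). The fitted log2 changes of the 4 epithelial genes were 0.36 ± 0.23 for Esrp1, 0.23 ± 0.42 for Esrp2, 0.56 ± 0.50 for Ovol1 and 0.16 ± 0.25 for Grhl2. None of these passed, with adjusted p-values from 0.792 to 0.936 (edgeR). Over passage, the fitted changes per doubling were 0.15 ± 0.15 for Snai2, -0.74 ± 0.41 for Zeb2, 0.11 ± 0.08 for Esrp1, -0.09 ± 0.16 for Esrp2, -0.13 ± 0.18 for Ovol1 and 0.09 ± 0.09 for Grhl2, none called.

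Summed over genes, the 4 epithelial genes outweighed the 6 EMT factors in every library. The epithelial sum was 233, 301, 277 and 238 TPM in SFM (P2, P4, P10 and P25) and 372 and 343 TPM in SCM (P10 and P25), and 215, 226 and 207 TPM in IMOK. The EMT factors held 11.5% to 28.2% of the summed TPM of the 10 genes in mSGc and 30.8% to 34.6% in IMOK. This difference was not tested, and it has no background over other sets of genes beside it. Both extremes of the share in mSGc were later libraries, P25 in SCM the lowest and P10 in SFM the highest. These sums follow their most abundant genes: Snai2 alone held 88.7% of the EMT sum at P2, where the Zeb genes held 6.96%, their highest share. The epithelial sum includes Esrp2, whose reads in the stretch shared with 1810019D21Rik cannot be assigned to one of the genes.

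**Figure D5:**
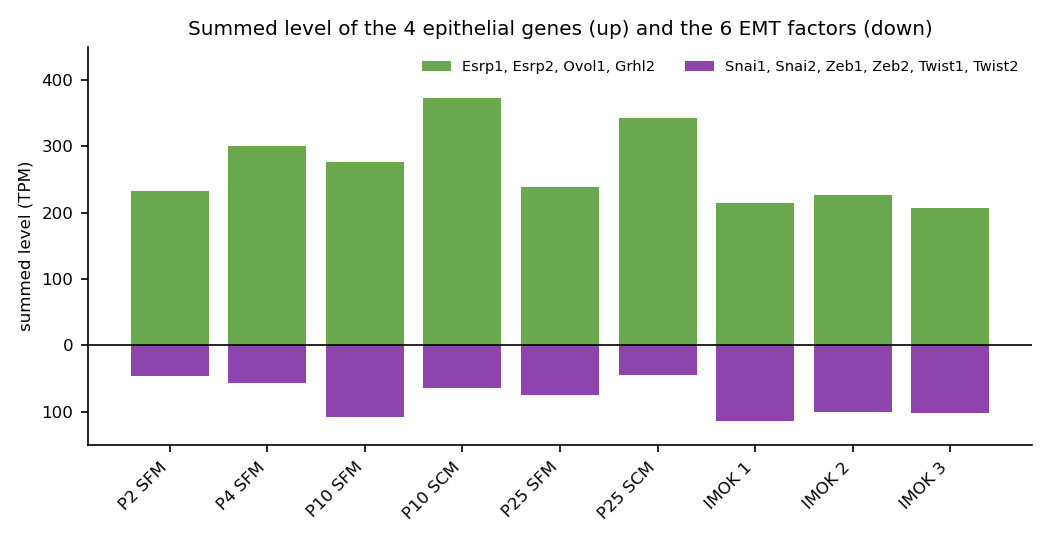
Summed level in TPM of Esrp1, Esrp2, Ovol1 and Grhl2 (green, upward) and of the 6 EMT factors (purple, downward) in each library. The green bars run from 207 to 372 TPM and the purple ones from 44.7 to 114 TPM, the latter reaching 100 TPM in mSGc at P10 in SFM only.

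The other genes of the EMT programme were read from 7 lists of 110 genes in all, of which 106 were tested for all mSGc against IMOK and 9 called (8.49%, beside 14.9% of all genes). Of 24 epithelial target genes 3 were called higher in mSGc and 1 lower, with a median log2 fold change of 0.35 beside 0.00 over all genes. Cdh1, the E-cadherin gene that the Snail and Zeb proteins repress, was higher by 1.29 ± 0.27 (adjusted p = 0.0132, edgeR), at 358 to 778 TPM in mSGc and 258 to 315 TPM in IMOK. Cdh1 lies on chromosome 8 close to Esrp2 and is also on the study's gene list. The polarity gene Llgl2 was higher by 0.99 ± 0.30 and the desmosome gene Dsp (desmoplakin) by 0.93 ± 0.23, while the protease inhibitor gene Spint1 was lower, at -0.94 ± 0.24 (adjusted p = 0.0488, 0.0261 and 0.0270, edgeR).

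Of the 14 tested mesenchymal target genes 0 were called for all mSGc against IMOK by edgeR, 1 with an unadjusted p under 0.05. Over all genes 14.9% were called in that fit. Vim (vimentin) stood at 132 to 532 TPM in mSGc and 136 to 456 in IMOK, and Fn1 (fibronectin) at 263 to 1598 and 142 to 873. Their log2 fold changes of 0.55 ± 0.51 and 0.83 ± 0.67 did not pass (adjusted p = 0.514 and 0.442, edgeR), and in IMOK both were highest in replicate 1. At P10 Sparc, a matrix protein gene, was called lower, at -3.29 ± 0.26 (adjusted p = 0.00901, edgeR), and Cldn3, a tight junction gene, was called higher, at 4.87 ± 0.55 (adjusted p = 0.0170, edgeR). Both calls were of 1 gene from their list in that direction. In the P10 fit 4 of 106 tested list genes were called (3.77%, beside 4.2% of all genes). Cldn3 stood at 247 and 60.3 TPM at P2 and P4 and at 17.6 TPM in both P10 libraries. At P25 it had 1 count each in SFM and SCM (0.0931 and 0.252 TPM), below the IMOK range of 0.465 to 0.918 TPM.

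Of 15 tested genes in a list of other factors linked to EMT, 2 were called higher, beside 14.9% of all genes called in either direction. Both are of the Id family, which do not drive EMT as the members do but bind helix-loop-helix partners and keep them off DNA. Id2 was higher by 4.99 ± 1.48 and Id3 by 4.43 ± 0.89 (adjusted p = 0.0475 and 0.0103, edgeR). Id3 stood at 4.79 to 55.5 TPM in mSGc and 0.616 to 1.46 TPM in IMOK, while Id2 ranged from 1.03 to 89.96 TPM in mSGc and 0.490 to 1.66 in IMOK, so that both P10 and P25 libraries in SFM lay inside the IMOK range. At P10 the mesenchymal homeobox gene Prrx1 was called higher (5.87 ± 0.98, adjusted p = 0.0403, edgeR) at 2.86 and 0.573 TPM, against at most 0.0473 in IMOK. Prrx1 had 91 and 69 counts at P2 and P4, but 0 and 1 counts at P25 in SFM and SCM.

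Of 13 genes of the TGF-beta pathway, the main inducer of Snail and Zeb genes in epithelia, 0 were called against IMOK by edgeR in either fit. An unadjusted p under 0.05 was reached by 2 over all mSGc and by 1 at P10. Over all genes 14.9% and 4.2% were called in these fits, to be set beside this list and the next ones. Tgfb1 stood at 14.3 to 24.5 TPM in mSGc and 25.02 to 71.4 in IMOK (log2 fold change -0.89 ± 0.28, adjusted p = 0.0605, edgeR), and Tgfb2 at 0.971 to 17.3 and 0.736 to 3.50 (1.77 ± 0.83, adjusted p = 0.181, edgeR). Among 14 splicing regulators and genes whose splicing Esrp proteins direct, 2 were called lower in mSGc, Fgfr2 by 1.77 ± 0.21 and Enah by 1.00 ± 0.22 (adjusted p = 0.000857 and 0.0153, edgeR). Fgfr2, whose IIIb exon is an Esrp target, stood at 8.98 to 16.5 TPM in mSGc and 45.04 to 54.0 TPM in IMOK. Isoforms were not separated in these counts. Of 15 co-repressors and chromatin partners of the EMT factors 0 were called against IMOK by edgeR in either fit, with 3 and 2 at an unadjusted p under 0.05. Over the passage, 2 epithelial target genes were called, both lower, Cldn4 by 1.17 ± 0.13 and Mal2 by 0.83 ± 0.12 per doubling (adjusted p = 0.0332 and 0.0445, edgeR). They were the only calls among 107 tested list genes (1.87%, beside 0.49% of all genes). By medium, 0 of 107 list genes were called by edgeR and 16 by DESeq2, against 3 and 271 of all 12451 genes tested. Against IMOK the calls of Fgfr2 over all mSGc and of Enah held in all 14 alternatives and that of Id3 in all 13 that tested it. Those of Llgl2 and Id2 were lost in 10 and 9 alternatives, each without any 1 of the IMOK replicates among them, and that of Mal2 over passage in 8. The calls of Dsp and Spint1 were lost without any 1 IMOK replicate, and that of Cdh1 without replicate 2 or 3. At P10 the calls of Cldn3 and Prrx1 were lost without IMOK replicate 2 or 3, where only 36 and 69 genes in all were called. Without a P10 library only 1 mSGc library is left, so such a fit cannot check these calls. Leaving out 1 library of either line gave 4.62 to 5.17 for Cldn3, 4.16 to 6.64 for Prrx1 and -3.42 to -3.19 for Sparc. The call of Cldn4 was lost without P2, P4 or P25 in SFM, where 0, 2 and 0 genes in all were called by passage. That loss is thus not particular to Cldn4.

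The genes whose pattern was most like that of a member over the 6 mSGc libraries were sought for the members that varied enough, Snai2, Twist1 and Esrp2, among 4052 genes. All points share their libraries, and with 6 points and so many genes high values are common. For Snai2 they were Abcb1b and Thumpd2 (Pearson r of log2(TPM + 1) 0.98 and 0.97, and 0.92 and 0.96 without the 2 libraries farthest from the median). For Twist1 they were 2310067B10Rik and Car12 (0.98 and 0.97, and 0.82 and 0.89 without P2 and P4). For Esrp2 they were Mir1949 and its overlapping neighbour 1810019D21Rik (0.97 and 0.93, and 0.84 and 0.70 without P4 and P10 in SCM).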

How the data were processed

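The authors aligned reads to mm9 with Tophat2 and deposited counts of reads per gene, raw and without normalization, in 2 tables, with gene lengths. The submitters' processing notes name TopHat2 2.1.1, Bowtie2 2.2.6, featureCounts 1.5.1 and DESeq2 1.12.4. The annotation, strandedness and treatment of reads mapping to several places are not given in the sources used here. The media of mSGc libraries were identified from the labels and the study's names for them.

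TPM was computed from counts and deposited lengths. Counts were tested in R 4.3.3 with edgeR 4.0.16 (quasi-likelihood, TMM, filterByExpr, Benjamini-Hochberg over all genes, adjusted p under 0.05 called); SE is the absolute log2 fold change over the square root of F. DESeq2 1.42.0, limma 3.58.1 (voom), other filters, no TMM factors, and leaving out each library were alternatives. Log2 passage and medium shared 1 fit. Differences between single libraries carry exact binomial intervals (95%). All tests were checked on simulated data. Python 3.11.15 and scipy 1.17.1 were used. Nothing says that IMOK replicates came from separate cultures, so p-values measure only the spread between these libraries; chi-square per degree of freedom between them was 150, 180 and 21.3, so none was counted as a repeat. The mSGc libraries of different passage and medium stood as replicates of the line against IMOK.

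The genes and lists were chosen with earlier results of these data known. All 10 genes are reported in each fit. From the lists, called genes are named, at most 4 per direction, with Cdh1, Vim, Fn1, Tgfb1, Tgfb2, Ovol2, Grhl1, Grhl3 and Snai3 whatever their result. The result of 1 called list gene is not reported here. Markers are named to describe the libraries, and 1810019D21Rik for its overlap, after values were seen. Of the listed genes, 2 were found under another symbol. Medians over neighbours and chromosomes were chosen once values were known.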

Additional observations from a re-analysis of the deposited data

Results flagged for a closer look

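Among the 6 mSGc libraries, 4 values lay farther from the rest than Dixon's 95% limit allows, among 11 quantities examined, and chance flags about 1 in 20 such groups. Snai2 was highest at P10 in SFM, at 97.7 TPM. Zeb1 and Zeb2 were highest at P2, at 1.89 and 1.35 TPM. The log2 ratio of Esrp1 to Esrp2 was lowest at P4, at -0.60.

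Opposite differences, each beyond its counting interval and none tested beyond that, were seen between conditions with 1 library each. For Twist1, SCM against SFM gave a log2 ratio of 1.08 at P10 and -1.35 at P25, and P25 against P10 gave 1.35 in SFM and -1.08 in SCM. For Esrp1, P25 against P10 gave -0.25 in SFM and 0.14 in SCM. For Esrp2 it gave 0.31 in SFM and -0.28 in SCM.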

How the results depend on the processing

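Of the 10 genes, edgeR called 1 for all mSGc against IMOK (Esrp2). DESeq2 called 2 (Esrp1 and Esrp2), against 2905 of all 12885 genes tested, where edgeR called 1918. No filter gave 2 (Twist2 and Esrp2), against 1746 of 18293 genes, and leaving out 1 library gave 0 to 2. Esrp2 was called in 12 of 14 alternatives, with values of 1.07 to 1.35 and adjusted p-values of 0.00013 to 0.0721. At P10 edgeR called 0 and DESeq2 called 3, against 547 and 2231 of all 13018 genes tested. Leaving out 1 IMOK replicate gave 0 to 3. The 3 were without replicate 1, where 3416 of 12602 genes were called. The added calls thus came with more calls over all genes. For medium all alternatives gave 0, and for passage DESeq2 gave 1 (Twist1). Over all 12451 genes tested within mSGc, DESeq2 called 271 by medium and 700 by passage. Of the list genes against IMOK, DESeq2 called 27 over all mSGc and 18 at P10, beside the 2905 and 2231 genes above. At least 10 counts in every library gave 2 list genes at P10. Leaving out 1 library gave 3 to 12 over all mSGc, and leaving out 1 IMOK replicate gave up to 21 at P10. For medium DESeq2 gave 16, no filter 5, passage as a block over P10 and P25 13, and leaving out 1 library 0 to 6. For passage DESeq2 gave 27, no filter 8, voom 7, the untransformed passage number 8, at least 10 counts in every library 0, SFM libraries alone 0, and leaving out 1 library 0 to 15.

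Signs turned for results that were not called. Against IMOK over all mSGc, voom gave -1.05 for Zeb2 and -0.13 for Grhl3, and no TMM factors gave -0.070 for Grhl3. Leaving out 1 library gave -1.32 to 0.47 for Zeb2 and -0.25 to 0.39 for Grhl3. For Snai2 at P10, no TMM factors gave -0.067, no filter -0.0063 and voom -0.17. Leaving out 1 library gave -0.88 to 0.60 for Snai2 and -3.89 to 0.068 for Zeb2 at P10. For Twist1 by medium, voom gave -0.022, the block -0.15 and leaving out 1 library -1.56 to 1.47, and Grhl2 by medium ran from -0.11 to 0.32. By passage, leaving out 1 library gave -0.050 to 0.43 for Snai2, -0.29 to 0.047 for Esrp2, -0.26 to 0.11 for Ovol1 and -0.012 to 0.22 for Grhl2. The difference in the log2 ratio of Esrp1 to Esrp2 ran from -0.80 to -0.44. The causes were not tested. With 1 library per mSGc condition, low counts of Snai1, Zeb1, Zeb2 and Twist2 limit what can be compared. In the fit that pairs SCM with SFM at P10 and at P25 (passage as a block), 123 of 11938 genes were called by medium, against 3 of 12451, and 0 of the 10 genes.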
